A study of Mus musculus with 21 samples.

Results

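Transcripts of 9 genes of the megakaryocyte and platelet lineage were followed through every library of this mouse series. The genes were Pf4, Ppbp, Gp1ba, Gp1bb, Gp9, Gp5, Gp6, Treml1 and Nfe2, and they were taken by symbol. All 9 were found among the 27968 genes listed for the sorted cells and among the 22899 genes listed for the cocultures.

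The series holds 21 RNA-seq libraries, 3 for each of 7 groups. It compared mouse pluripotent stem cells that were led toward blood in a 3D system and then plated on OP9, a mouse bone marrow stromal line treated with mitomycin C, or on gelatin alone. The groups 3D+OP9 and 3D+0.1%gel are the total cells of these 2 cultures at day 5, both from cells of 129/ola background and both kept with SCF, IL-3 and Flt3 ligand. OP9 cells are themselves of the mouse, so any of their RNA in a library is counted in the same genes.

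The other 5 groups were sorted. The group mESC is undifferentiated 129/ola embryonic stem cells sorted with SSEA-1. D5-LSKCD201+ and D5-LSKCD201- were sorted at day 5 from the 3D+OP9 culture as cells without lineage markers that carry Sca-1 and c-Kit (LSK), with or without CD201, the endothelial protein C receptor. FL-LSKCD201+ and BM-LSKCD201+ are LSK CD201+ cells from C57BL/6 fetal liver and from adult C57BL/6 bone marrow. Strain and origin in culture or in the animal cannot be told apart in any comparison between the day 5 cells and the fetal liver or bone marrow cells.

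Megakaryocytes are the large bone marrow and fetal liver cells that shed platelets, and they share progenitors with red cells and, in part, a transcription programme with stem cells. Platelets carry chemokines in their alpha granules, bind von Willebrand factor through the GPIb-IX-V receptor and bind collagen through GPVI. Transcripts of several of these proteins are also found at low level in hematopoietic stem cells with a bias to platelet production.

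The genes of CD201, c-Kit and Sca-1 followed the labels of the day 5 cells. Procr, which encodes CD201, averaged 59.7 FPKM in the day 5 CD201+ cells against 3.48 in the CD201- cells. Kit averaged 44.5 and 28.8, and Ly6a, which encodes Sca-1, 61.3 and 32.6. FPKM, fragments counted per length of transcript and per size of library, is the unit of every level given here, so that levels of different genes may be set side by side. The pluripotency markers, 8 genes such as Pou5f1 and Nanog, summed to 6835 to 7400 FPKM in mESC, 3749 to 4247 in D5-LSKCD201- and 24.5 to 32.8 in D5-LSKCD201+, and all 8 were called lower in the last than in the second. The part of such cells in the difference between the day 5 groups was not tested. Ptprc, the leukocyte common antigen CD45, averaged 0.409 FPKM in D5-LSKCD201+ against 43.5 in FL-LSKCD201+ and 66.8 in BM-LSKCD201+. In 4 groups a pair of libraries resembled each other more closely than the third, and FL-LSKCD201+ replicate 1, BM-LSKCD201+ replicate 1, D5-LSKCD201- replicate 2 and 3D+OP9 replicate 3 stood apart. Over all genes the correlation of log2(FPKM + 1) was 0.9984 for the closer pair and 0.9883 to 0.9892 for the third library in FL-LSKCD201+, and results that turn on such a library are given with and without it.

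The windows of 250 bases before the transcription start are shown for Pf4 and for the 4 subunits of the GPIb-IX-V receptor, because Pf4 and Gp1ba were higher in D5-LSKCD201+ than in D5-LSKCD201-, while the partners of Gp1ba in the receptor stayed under 0.5 FPKM in both. The sequences are from RefSeq on build GRCm38.p6, 5′ to 3′ on the strand of the gene, and 8 of the 9 genes had an entry, Nfe2 being the one without. Capitals mark 3 kinds of match searched on both strands. GATAA (or TTATC) is the core bound by GATA factors, AGGAAG (or CTTCCT) holds the core bound by ETS factors such as Fli1, and TGANTCA is the core shared by NF-E2 and AP-1.
Pf4, chr5:90772185-90772434, plus strand: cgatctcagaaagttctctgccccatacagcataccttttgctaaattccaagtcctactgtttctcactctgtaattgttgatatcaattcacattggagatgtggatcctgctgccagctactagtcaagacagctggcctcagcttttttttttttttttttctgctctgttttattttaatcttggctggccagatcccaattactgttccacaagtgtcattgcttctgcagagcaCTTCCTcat
Gp1ba, chr11:70638872-70639121, plus strand: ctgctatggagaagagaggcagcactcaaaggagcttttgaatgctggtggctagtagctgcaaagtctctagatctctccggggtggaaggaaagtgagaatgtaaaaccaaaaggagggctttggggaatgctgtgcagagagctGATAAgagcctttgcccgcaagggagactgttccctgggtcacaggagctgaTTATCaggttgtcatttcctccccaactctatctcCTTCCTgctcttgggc
Gp1bb, chr16:18622404-18622653, minus strand: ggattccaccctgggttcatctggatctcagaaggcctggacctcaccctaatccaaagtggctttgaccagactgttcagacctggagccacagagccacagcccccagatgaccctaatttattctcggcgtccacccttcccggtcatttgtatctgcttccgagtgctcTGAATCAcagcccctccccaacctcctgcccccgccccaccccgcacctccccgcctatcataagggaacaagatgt
Gp9, chr6:87777820-87778069, plus strand: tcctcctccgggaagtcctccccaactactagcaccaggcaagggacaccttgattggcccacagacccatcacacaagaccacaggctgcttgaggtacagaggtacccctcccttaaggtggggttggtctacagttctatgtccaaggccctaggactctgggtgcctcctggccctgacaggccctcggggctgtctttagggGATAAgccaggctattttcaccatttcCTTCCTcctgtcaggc
Gp5, chr16:30310782-30311031, minus strand: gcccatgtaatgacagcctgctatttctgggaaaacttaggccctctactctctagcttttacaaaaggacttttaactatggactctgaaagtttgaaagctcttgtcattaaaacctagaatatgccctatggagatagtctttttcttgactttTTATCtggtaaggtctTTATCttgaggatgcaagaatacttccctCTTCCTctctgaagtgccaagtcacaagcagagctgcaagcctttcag

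Of the 8 windows, 4 held GATAA (Gp1ba, Gp5, Gp6 and Gp9), where 22.6% of all 32851 promoter windows of this length did. AGGAAG was in 4 (Pf4, Gp1ba, Gp5 and Gp9) against 29.5% of all windows, and TGANTCA in 2 (Ppbp and Gp1bb) against 6.75%. Gp1ba, Gp9 and Gp5 each held both GATAA and AGGAAG, with the AGGAAG match beginning 16, 16 and 48 bases before the start. Gp1bb held neither of these and had its TGANTCA match 77 bases before the start. The Treml1 window held none of the 3. The matches describe the letters and are no measure of binding.

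The genes lie on 7 chromosomes, and only the chemokine genes are neighbours. In GRCm38, Pf4 lies at chr5:90772435-90773383 and Ppbp at chr5:90768518-90770063, both on the plus strand with 2371 bases between them. Gp1ba lies at chr11:70639122-70642036, Gp9 at chr6:87778072-87779768, Gp5 at chr16:30307685-30310779 and Gp1bb at chr16:18620317-18622403. Gp6 lies at chr7:4363965-4397744, Treml1 at chr17:48359916-48367176 and Nfe2 at chr15:103248212-103258403. The annotated span of Gp1bb lies over that of Sept5 on the same strand, and the locus deposited for Gp1bb runs across Sept5, so that reads of these genes may have been divided between them and the level of Gp1bb is uncertain. Sept5 itself was at or under 1.19 FPKM in every sorted library.

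**Figure D1:**
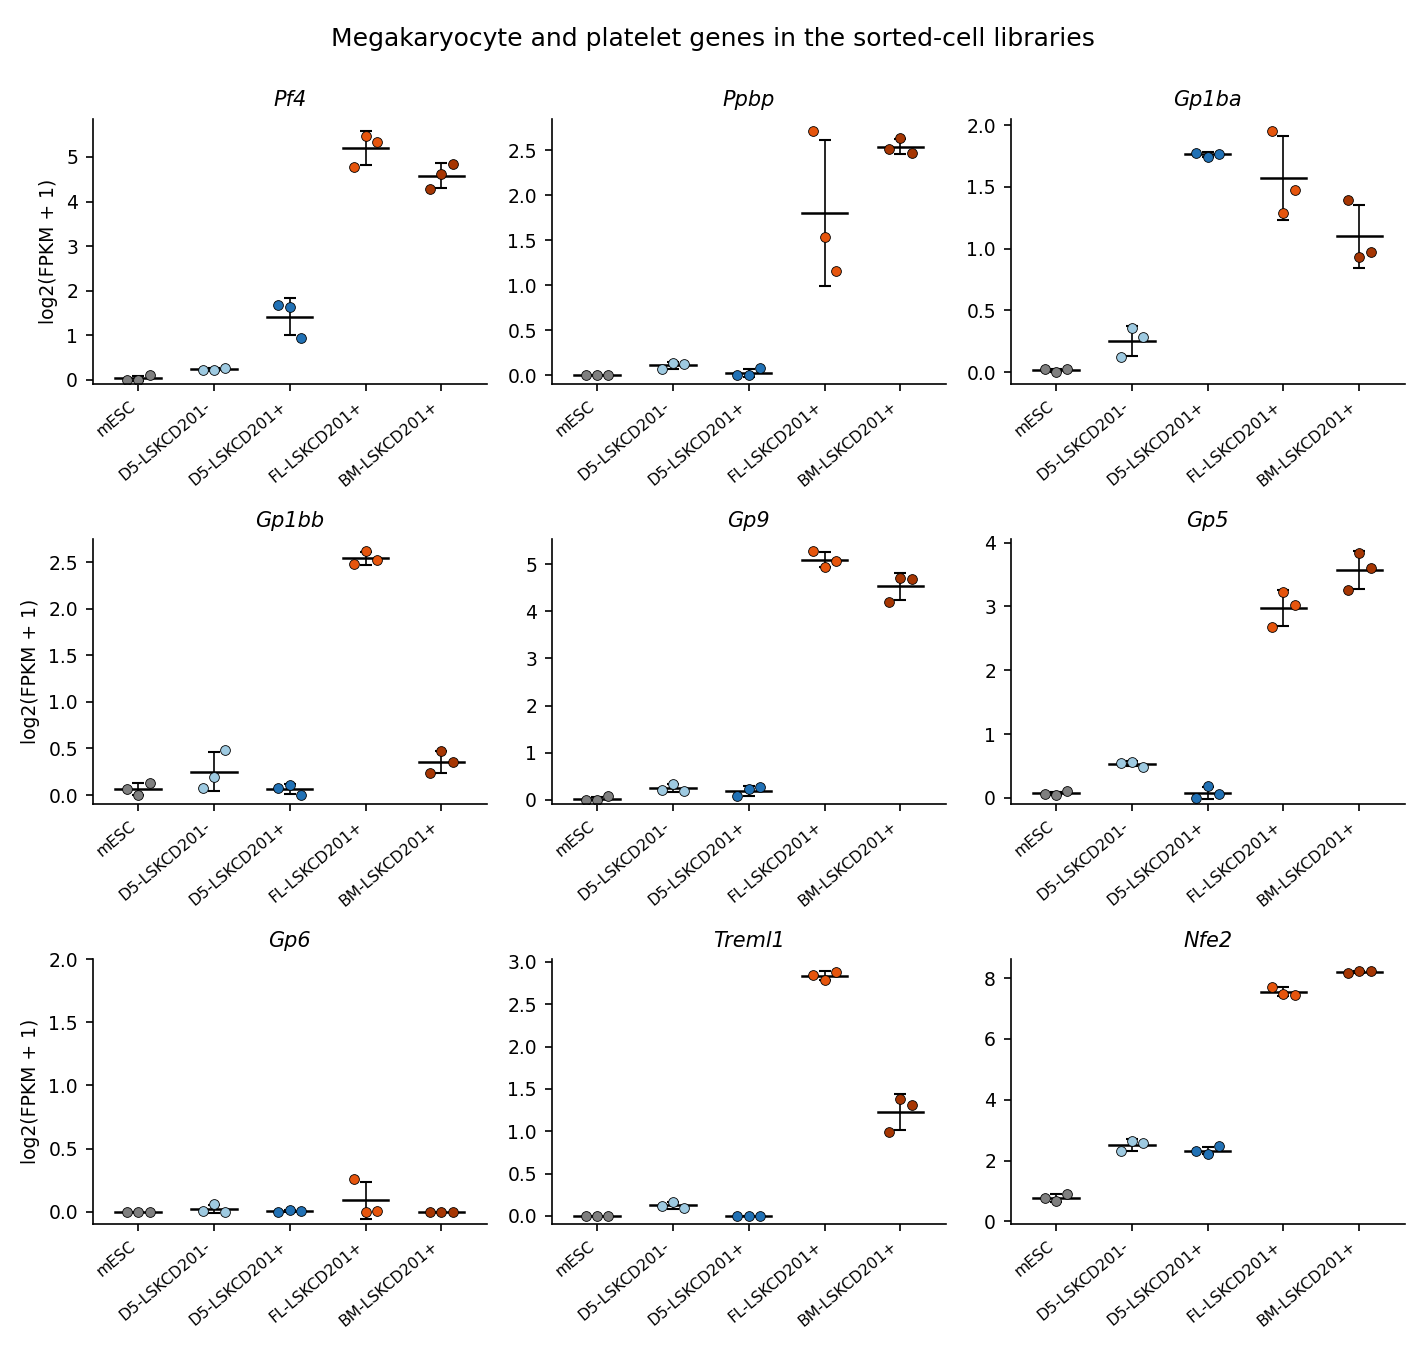
Level of each of the 9 genes in the 15 sorted-cell libraries, as log2(FPKM + 1), 1 point per library, with the mean and SD of each group of 3. The vertical scales differ between genes. Most genes are near 0 in mESC and both day 5 groups and high in FL-LSKCD201+ and BM-LSKCD201+, Gp1ba in D5-LSKCD201+ lies above fetal liver replicates 2 and 3 and below replicate 1, Gp1bb and Treml1 are higher in fetal liver than in bone marrow, and Gp6 is near 0 throughout.

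Pf4 encodes platelet factor 4 (CXCL4), an abundant chemokine of the alpha granule. It was 0, 0 and 0.0763 FPKM in the mESC libraries. At day 5 it was 0.162, 0.160 and 0.211 FPKM in the CD201- cells against 2.21, 2.11 and 0.927 in the CD201+ cells. It was 26.2, 43.6 and 39.4 FPKM in FL-LSKCD201+ and 18.4, 23.6 and 27.7 in BM-LSKCD201+. The 4 levels from mESC up to bone marrow followed each other without overlap, and the libraries of fetal liver and bone marrow overlapped.

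Pf4 was 9.82-fold higher in D5-LSKCD201+ than in D5-LSKCD201- as a ratio of mean FPKM. On the log2(FPKM + 1) scale, which understates the change of a low gene and is used for all tests here, the difference was 1.19 (SE 0.20, adjusted p = 0.00129, limma). Genes were tested from a mean of 0.5 FPKM over the libraries compared, and Pf4 passed only through D5-LSKCD201+, so that its direction was fixed by the filter. With no filter its adjusted p was 0.0038, and with the filter at 1 FPKM it was no longer tested between the day 5 groups. The lowest D5-LSKCD201+ library, replicate 3, was still above every D5-LSKCD201- library, and the difference was 1.42 without it. Even so, Pf4 in D5-LSKCD201+ was 20.8-fold lower than in FL-LSKCD201+ (difference -3.77, SE 0.26, adjusted p = 1.5e-05) and 13.3-fold lower than in BM-LSKCD201+ (-3.16, SE 0.23, adjusted p = 6.8e-06).

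Ppbp encodes pro-platelet basic protein, the precursor of CXCL7 and the neighbour of Pf4. It did not follow Pf4 in the day 5 cells. It was listed at 0 in all 3 mESC libraries, was 0.05, 0.0997 and 0.0903 FPKM in the day 5 CD201- cells, and was 0, 0 and 0.0550 in their CD201+ counterparts. These low values of the day 5 groups overlapped. Ppbp was 4.72, 5.20 and 4.53 FPKM in bone marrow cells. In fetal liver cells it was 5.55, 1.91 and 1.24 FPKM, where replicate 1 was apart from the others. The ratio of Pf4 to Ppbp was 3.89, 4.54 and 6.11 in the bone marrow libraries and 4.72, 22.9 and 31.9 in the fetal liver libraries.

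The GPIb-IX-V receptor is built from GPIb alpha (Gp1ba), which holds the site for von Willebrand factor, GPIb beta (Gp1bb) and GPIX (Gp9), which are needed to bring it to the surface, and the more loosely bound GPV (Gp5). Of the tested genes of the set, Gp1ba had the largest difference between the day 5 groups. Its levels were 0.0147, 0 and 0.0148 FPKM in mESC, 0.0864, 0.278 and 0.218 for day 5 CD201- cells, and 2.43, 2.35 and 2.40 for day 5 CD201+ cells. The 3 day 5 CD201+ libraries lay close together and far above the other cultured cells.

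Gp1ba was 12.3-fold higher in D5-LSKCD201+ than in D5-LSKCD201- (difference 1.51, SE 0.09, adjusted p = 7.5e-06). It too passed the filter only through D5-LSKCD201+, and with no filter the adjusted p was 4.5e-05. In FL-LSKCD201+ it was 2.87, 1.44 and 1.78 FPKM and in BM-LSKCD201+ 1.63, 0.905 and 0.963. The D5-LSKCD201+ libraries lay above fetal liver replicates 2 and 3 and below replicate 1, with a difference of 0.19 (SE 0.17, adjusted p = 0.348). Without replicate 1, which stood apart over all genes too, the difference was 0.38 (adjusted p = 0.00503), still short of the absolute difference of 1 asked of a call. All 3 day 5 CD201+ libraries were above all bone marrow libraries, by 0.66 (SE 0.14, adjusted p = 0.00248), which is short of a call as well. With a pseudocount of 0.1 this difference was called higher. D5-LSKCD201- was lower than fetal liver by a called difference of -1.32 (SE 0.18, adjusted p = 0.00047), where Gp1ba passed the filter only through fetal liver.

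The partners of Gp1ba stayed low beside it. Gp9 was 0.0488, 0.172 and 0.204 FPKM in the day 5 CD201+ cells, overlapping the 0.156, 0.262 and 0.131 of the CD201- cells. It was 37.7, 29.9 and 32.8 FPKM in FL-LSKCD201+ and 17.4, 25.1 and 24.8 in BM-LSKCD201+. All fetal liver libraries were above all bone marrow libraries, and D5-LSKCD201+ was 236-fold and 159-fold lower than these groups, by differences of -4.91 (SE 0.11, adjusted p = 1.1e-07) and -4.35 (SE 0.15, adjusted p = 1.3e-07). In both tests Gp9 passed the filter only through the cells from the animal, so that its direction was fixed by the filter. The lowest Gp9 value above 0 in any sorted library was 0.0483 FPKM, so the day 5 levels stood close to the limit of what was listed.

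Gp5 showed the reverse order in the day 5 cells. It was 0, 0.140 and 0.0406 FPKM in the CD201+ cells, below the 0.465, 0.475 and 0.407 of the CD201- cells with no overlap, but both were under the mean of 0.5 FPKM asked of a tested gene and the difference was not tested at this filter. In FL-LSKCD201+ it was 5.41, 8.37 and 7.11 FPKM and in BM-LSKCD201+ 8.51, 13.3 and 11.2. D5-LSKCD201+ was lower than these groups by -2.89 (SE 0.15, adjusted p = 4.0e-06) and -3.48 (SE 0.15, adjusted p = 4.8e-07). Gp5 passed the filter there only through fetal liver or bone marrow, so that its direction was fixed by the filter.

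Gp1bb separated fetal liver from all other cells. It was 4.58, 5.14 and 4.77 FPKM in FL-LSKCD201+ and 0.18, 0.387 and 0.282 in BM-LSKCD201+. In the day 5 CD201+ cells it was 0.0571, 0.0759 and 0, for the CD201- cells it was 0.0514, 0.148 and 0.399, and for mESC 0.0483, 0 and 0.0905. The bone marrow libraries overlapped D5-LSKCD201-. Fetal liver was 17.1-fold above bone marrow (difference 2.19, SE 0.12, adjusted p = 1.2e-05), in a gene that passed the filter only through fetal liver, while the overlapping gene Sept5 was 0.333, 0.321 and 0.0808 FPKM in fetal liver and 0.541, 0.0832 and 0.152 in bone marrow. Another gene annotated over Gp1bb on the same strand, Gm49601, was not analysed here.

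The make-up of the receptor transcripts differed between the sorted groups. In D5-LSKCD201+ Gp1ba made up 95.8, 85.8 and 90.8% of the summed FPKM of the 4 subunits, which came to 2.54 to 2.73. In D5-LSKCD201-, from the same culture, it made up 11.4, 23.9 and 18.8% of sums of 0.758 to 1.16, and Gp5 made up 61.3, 40.8 and 35.3%, all at levels under 0.5 FPKM. In FL-LSKCD201+ it made up 5.69, 3.20 and 3.83% of sums of 44.9 to 50.5, and in BM-LSKCD201+ 5.86, 2.28 and 2.58% of sums of 27.8 to 39.7. Gp9 was the leading subunit in the cells from the animal, with 66.7 to 74.5% in fetal liver and 62.8 to 66.5% in bone marrow. These shares are given without a test, and 3 against 3 libraries allow no two-sided exact permutation p below 0.1.

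**Figure D2:**
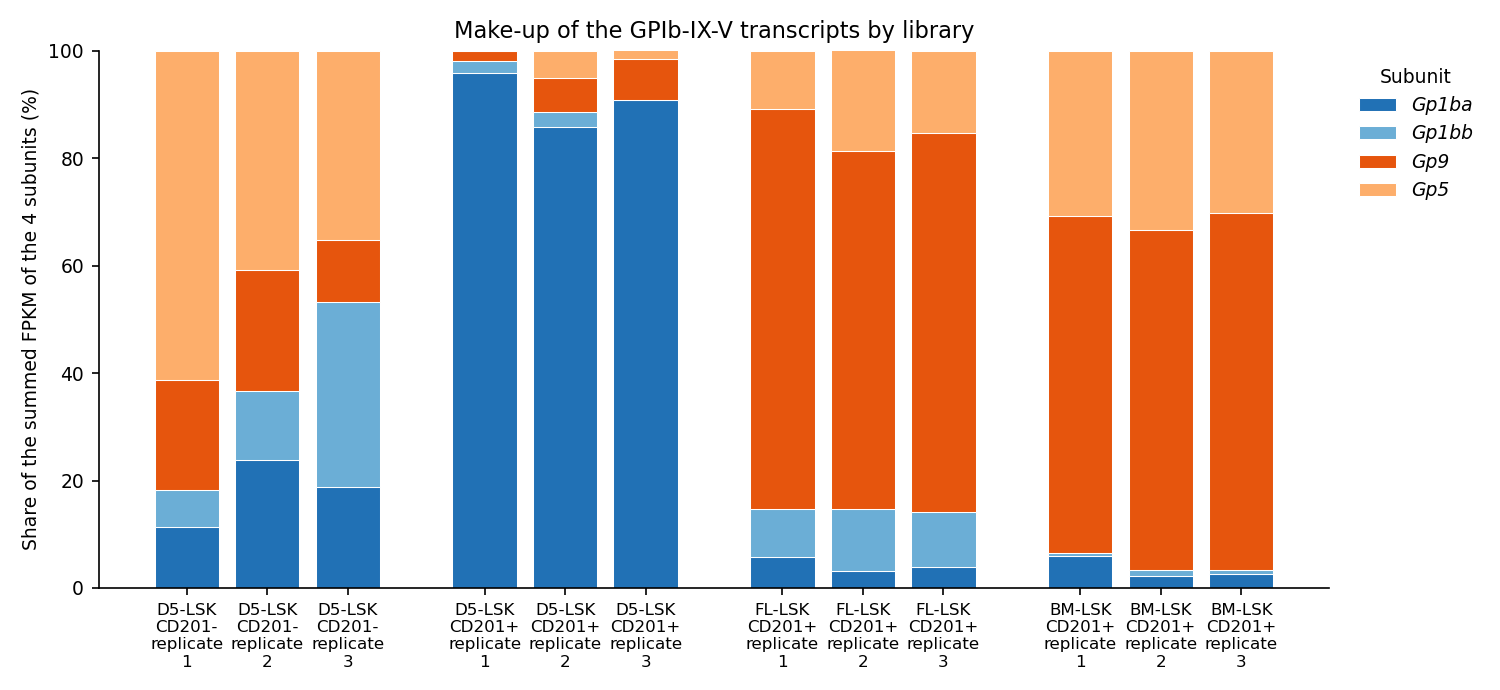
Share of each subunit in the summed FPKM of Gp1ba, Gp1bb, Gp9 and Gp5, in percent, for the 3 libraries each of D5-LSKCD201-, D5-LSKCD201+, FL-LSKCD201+ and BM-LSKCD201+. Gp1ba fills 85.8 to 95.8% of each D5-LSKCD201+ bar and 11.4 to 23.9% of each D5-LSKCD201- bar, where every subunit is under 0.5 FPKM, whereas Gp9 fills 62.8 to 74.5% of each fetal liver and bone marrow bar.

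Gp6 encodes GPVI, the collagen receptor that signals through the Fc receptor gamma chain. It was never clearly present. It was listed at 0 in all mESC and all BM-LSKCD201+ libraries and was at most 0.0425 FPKM in the day 5 groups. The highest value was 0.198 FPKM, in FL-LSKCD201+ replicate 1, beside 0 and 0.00553 in the other two fetal liver libraries. It passed the filter in no comparison.

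Treml1 encodes TLT-1, a receptor held in the alpha granules and restricted to megakaryocytes and platelets. It was listed at 0 in all 3 mESC and all 3 D5-LSKCD201+ libraries, and was 0.0804, 0.124 and 0.0655 FPKM in D5-LSKCD201-. It was 0.987, 1.61 and 1.47 FPKM in bone marrow cells, against 6.17, 5.87 and 6.39 in those of fetal liver. Fetal liver was 4.52-fold above bone marrow without overlap (difference 1.61, SE 0.14, adjusted p = 8.5e-05). The lower level in D5-LSKCD201+ was called against fetal liver (adjusted p = 2.2e-07) and against bone marrow (adjusted p = 3.7e-05), the latter not without BM-LSKCD201+ replicate 2, where the count of called genes in that comparison fell from 6 to 5. With the filter at 1 FPKM it was not tested against bone marrow either. Treml1 passed the filter at 0.5 FPKM only through fetal liver or bone marrow, so that its direction was fixed by the filter.

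Nfe2 encodes the large subunit of NF-E2, a transcription factor that pairs with small Maf proteins and is required for platelet release. It had the highest mean of the 9 genes in each sorted group and was the only one above 0.1 FPKM in every mESC library, at 0.694, 0.575 and 0.884 FPKM. At day 5 it was 3.94, 5.27 and 4.98 FPKM without CD201 on the cells, against 3.93, 3.65 and 4.53 with it. These groups overlapped, with a difference of -0.18 (SE 0.13, adjusted p = 0.238). Both were above mESC, by 1.73 (SE 0.13, adjusted p = 3.6e-05) and 1.55 (SE 0.10, adjusted p = 5.7e-07), in comparisons that share the mESC libraries.

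In the cells from the animal Nfe2 was among the most abundant transcripts. It was 209, 178 and 175 FPKM in FL-LSKCD201+, above 98.2% of genes by its mean, and 287, 302 and 298 in BM-LSKCD201+, above 99.0% of genes. D5-LSKCD201+ was 46.4-fold lower than fetal liver (difference -5.22, SE 0.10, adjusted p = 6.8e-08) and 73.3-fold lower than bone marrow (-5.88, SE 0.07, adjusted p = 1.8e-09). Bone marrow was 1.58-fold above fetal liver without overlap, but the difference of -0.66 for fetal liver minus bone marrow (SE 0.10, adjusted p = 0.0014) was short of a call.

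Counted over the set, D5-LSKCD201+ was raised over D5-LSKCD201- in a minority of the genes. Only 3 of the 9 passed the filter, and 2 of them, Gp1ba and Pf4, were called higher and 0 lower at an adjusted p under 0.05 with an absolute difference of at least 1. Among all 13691 genes tested, 10.8% were called higher and 13.9% lower. Gp1ba and Pf4 passed the filter only through D5-LSKCD201+, where they are high, so that they had to be the higher there and the count is a description. With the filter at 1 FPKM the count was 1, Gp1ba. Against mESC the same 3 genes passed and all 3 were higher in D5-LSKCD201+, where 19.5% of all genes were higher and 18.1% lower, and here too Gp1ba and Pf4 passed only through D5-LSKCD201+. For D5-LSKCD201- against mESC only Nfe2 passed, and it was higher, where 10.9% of all genes were higher and 3.48% lower.

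Against the cells from the animal nearly every gene of the set that could be tested was lower at day 5. In D5-LSKCD201+, 7 of 8 tested genes were called lower than in FL-LSKCD201+, where 19.6% of all genes were lower and 15.1% higher, and 6 of 7 were called lower than in BM-LSKCD201+, where 27.2% were lower and 17.5% higher. In D5-LSKCD201- 8 of 8 were lower than in fetal liver (18.7% of all genes lower and 18.6% higher) and 6 of 7 lower than in bone marrow (26.3% lower and 23% higher). In all 4 comparisons 0 were called higher. Of the genes called lower, 5 of 7, 4 of 6, 7 of 8 and 5 of 6, in the order given, passed the filter only through fetal liver or bone marrow. These genes had to differ, and the counts are a description. Gp1ba was the tested gene not called in 3 of these 4 comparisons, and it was called lower only for D5-LSKCD201- against fetal liver. These Gp1ba calls depended on the pseudocount. With 0.1 in place of 1, Gp1ba was called higher in D5-LSKCD201+ and lower in D5-LSKCD201- than in bone marrow. These comparisons share the libraries of each group. In such sorted but bulk libraries fewer cells of a type and less RNA per cell cannot be told apart.

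Between fetal liver and bone marrow, Gp1bb and Treml1 were called higher in fetal liver, 2 of 8 tested genes, where 7.78% of all genes were, and 0 were called lower, where 11.3% were. Gp1bb passed the filter only through fetal liver and so had to be the higher there, and the count is a description. Of the other tested genes, Pf4 (0.61, SE 0.22, adjusted p = 0.0452) and Gp9 (0.57, SE 0.16, adjusted p = 0.0197) had higher means in fetal liver, and Gp5 (-0.59, SE 0.20, adjusted p = 0.0364) and Nfe2 (-0.66, SE 0.10, adjusted p = 0.0014) had higher means in bone marrow. None of these reached the difference asked of a call. For Gp1ba the difference was 0.47 (SE 0.21, adjusted p = 0.0972). Ppbp differed by -0.74 (SE 0.36, adjusted p = 0.124), and without FL-LSKCD201+ replicate 1 it was called lower in fetal liver (-1.19, adjusted p = 0.000737).

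Other cell types moved with these 2 groups. All 10 erythroid markers were called higher in fetal liver, where their summed level was 4945 to 10916 FPKM against 56.4 to 81.1 in bone marrow. The 10 myeloid markers summed to 1744 to 1818 FPKM in fetal liver and 488 to 518 in bone marrow, where Cx3cr1 was at 0, and 5 were called higher in fetal liver. The 8 listed mast cell markers summed to 48.3 to 76.7 FPKM in fetal liver and 3.77 to 4.01 in bone marrow, where Tpsab1, Cma1, Fcer1a and Ms4a2 were at 0. In D5-LSKCD201+ the same 3 lists summed to 40.6 to 63.0, 9.30 to 10.2 and 2.04 to 2.37 FPKM. The 8 stromal markers went the other way, from 90.2 to 94.3 FPKM in D5-LSKCD201+ to 12 to 14.7 in fetal liver and 6.42 to 6.85 in bone marrow. The part of these cells in the levels of Gp1bb, Treml1 and the other genes was not tested.

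In the total cells of the cocultures only Nfe2 and Gp1ba were above the filter, Gp1ba only through its level with OP9. Nfe2 was 3.48, 4.72 and 5.25 FPKM in 3D+OP9 and 0.540, 0.390 and 0.680 in 3D+0.1%gel. It was higher with OP9 in every library, by 1.83 (SE 0.16, adjusted p = 0.0014), and was the 1 gene of the set called there, where 2.11% of 12958 genes were called higher and 0.509% lower. Leaving out 1 library moved these calls from 273 higher and 66 lower to 172 and 37 (without 3D+0.1%gel replicate 2), 208 and 43 (without 3D+OP9 replicate 2) or 317 and 127 (without 3D+OP9 replicate 3), and Nfe2 was called each time. Gp1ba was 1.10, 1.02 and 0.510 FPKM with OP9 and 0.210, 0.290 and 0.290 without. Its groups did not overlap, yet the difference of 0.56 (SE 0.15, adjusted p = 0.0798) was not called, and leaving out 3D+OP9 replicate 3 gave 0.71 with an adjusted p of 0.00785.

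The remaining genes stayed under 0.5 FPKM in the cocultures. Gp9 was 0.26, 0.32 and 0.2 FPKM in 3D+OP9 and 0, 0.0700 and 0.0700 in 3D+0.1%gel, without overlap and without a test at the filter used. Gp5 was 0.260, 0.120 and 0.100 FPKM with OP9 and 0.240, 0.440 and 0.140 on gelatin, and Gp1bb was at most 0.240 FPKM. Pf4 and Ppbp were at most 0.0900 and 0.100 FPKM, Gp6 at most 0.0700 FPKM, and Treml1 was listed at 0 in all 6 libraries. The rise of Nfe2 came with erythroid markers, 6 of 10 called higher and summing to 216 to 779 FPKM against 5.09 to 22.9, and with endothelial markers, 8 of 10 called higher and summing to 125 to 150 FPKM against 28.6 to 42.6. Of the stromal markers 3 of 7 tested were called higher, and the 8 listed summed to 58.2 to 69.4 FPKM against 25.7 to 37. The 8 pluripotency markers summed to 826 to 1657 FPKM with OP9 and 1277 to 1366 on gelatin. Of these, 2 were called higher with OP9, Zfp42 and Esrrb, and 0 lower. The part of all these cells in the level of Nfe2 was not tested.

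**Figure D3:**
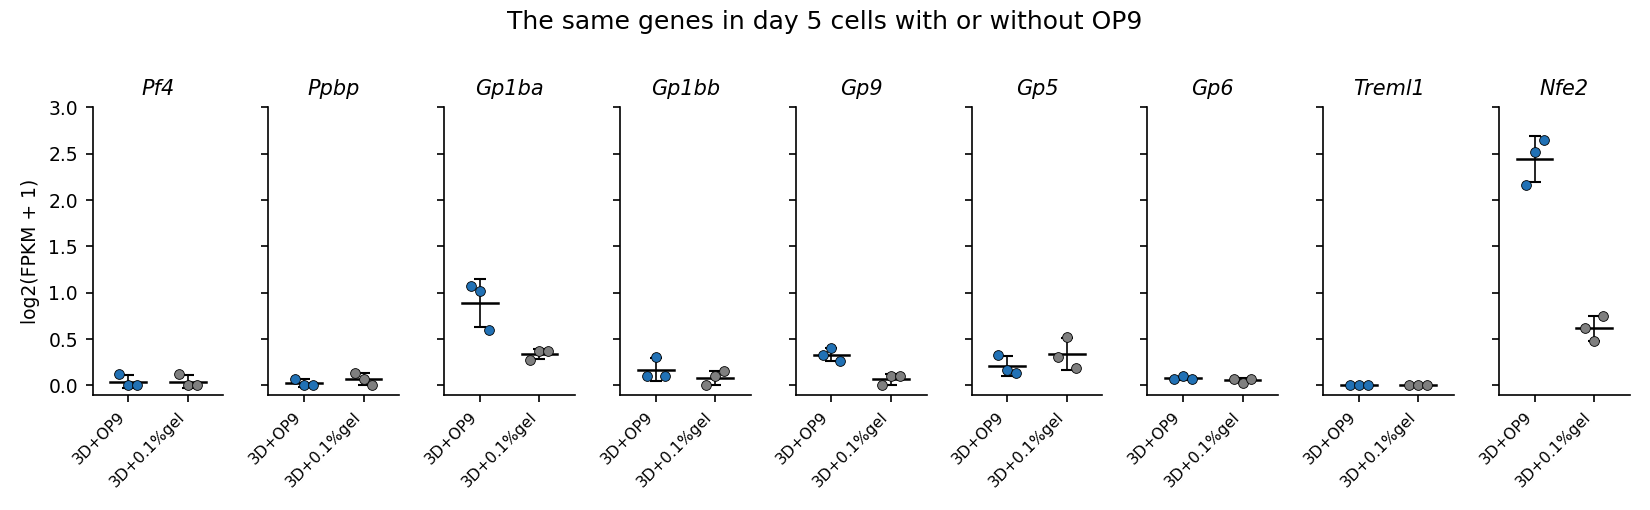
Level of the 9 genes in the day 5 total cells of the cocultures, as log2(FPKM + 1), 1 point per library, with the mean and SD of each group of 3. Nfe2 is higher in all 3D+OP9 libraries than in any 3D+0.1%gel library, Gp1ba is higher without passing the test, and the other genes stay under 0.5 FPKM.

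To place these genes in their lineage, 61 further genes were read in 4 lists of receptors and adhesion molecules, transcription factors, granule and cytoskeleton genes with enzymes, and signalling molecules below GPVI. With OP9, 15 of 43 tested genes of these lists were called higher and 1 lower than on gelatin, where 2.11% of all genes were higher and 0.509% lower. Of the 15, 8 averaged under 0.5 FPKM on gelatin, Itga2b, Itgb3, Gata1, Gfi1b, Plek and Fermt3 among them, and so passed the filter only through the OP9 group. For these genes the direction was fixed by the filter, and the counts over the lists are descriptions here and in the comparisons that follow. Among receptors, 6 of 11 were higher, led by Itga2b, the alpha chain of the platelet fibrinogen receptor (7 against 0.4 FPKM, difference 2.51, SE 0.14, adjusted p = 0.000616), and its partner Itgb3 (3.68 against 0.193 FPKM, 1.97). Among transcription factors, 6 of 12 were higher, led by Tal1 (2.19) and Gata1 (2.13), both shared with red cells. Among granule and cytoskeleton genes, 3 of 15 were higher, led by Fermt3, the integrin activator kindlin-3 (2.42), and Plek, the platelet protein kinase C substrate pleckstrin (1.63), and Myl9, a myosin light chain, was lower (-1.09). None of the 5 tested genes below GPVI was called.

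Between the day 5 groups, 23 of 53 tested genes of the lists were called higher and 7 lower in D5-LSKCD201+, beside 10.8% higher and 13.9% lower over all genes, so that the lower calls were about as frequent as among genes at large. Of these, 2 of the higher (Itga2 and Mmrn1) and 1 of the lower (Gata1) passed the filter only through the group where they are high. Receptors were mostly higher, 9 of 13 with 1 lower, led by Esam (373 against 14.9 FPKM, difference 4.56) and F2rl3, the thrombin receptor PAR4 (40.4 against 2.11 FPKM, 3.74), and the 1 that was lower was the tetraspanin Cd9 (-1.07). Itga2b was 45.2 FPKM against 3.78 (3.27, SE 0.07, adjusted p = 8.6e-08) and Vwf, von Willebrand factor, 6.85 against 1.13 (1.88, SE 0.11, adjusted p = 5.0e-06). Esam and Vwf are also genes of endothelium, and 10 of 10 endothelial markers were called higher in D5-LSKCD201+, summing to 2002 to 2033 FPKM against 125 to 131. Of the 8 stromal markers 2 were called higher and 1 lower, with sums of 90.2 to 94.3 FPKM against 35.8 to 69.5. Esam is counted both among the receptors and among the endothelial markers. The part of endothelial or stromal expression in these receptors, in Pf4 and in Gp1ba was not tested.

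The transcription factors went in both directions between the day 5 cells, 4 of 12 higher and 3 lower, as did all genes (10.8% and 13.9%). Fli1, the ETS factor of megakaryocytes and endothelium, was 55.9 FPKM in D5-LSKCD201+ against 3.81 (difference 3.57, SE 0.12, adjusted p = 4.5e-07), and Tal1 was also higher (1.98). Gata1, the GATA factor that megakaryocytes share with red cells, was lower in D5-LSKCD201+ at 0.155, 0.530 and 0.534 FPKM than in D5-LSKCD201- at 3.70, 5.66 and 4.31 (-1.98, SE 0.17, adjusted p = 4.6e-05). Runx1 (-1.19) and Gfi1b (-1.15) were lower as well. The 10 erythroid markers summed to 67.9 to 138 FPKM in the CD201- cells and 40.6 to 63.0 in the CD201+ cells, where 3 were called lower and 1 higher. D5-LSKCD201- held more Gata1, Runx1 and Gfi1b and less Fli1, Pf4 and Gp1ba than D5-LSKCD201+, at a level of Nfe2 that overlapped. Not all of the set went with Fli1. Gp5 and Treml1, both too low to be tested, were higher in D5-LSKCD201- without overlap, at means of 0.449 against 0.0602 and 0.0898 against 0 FPKM.

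Of the granule and cytoskeleton genes 6 of 19 were higher and 3 lower in D5-LSKCD201+, the lower ones near the 13.9% of all genes. Gng11, a G protein gamma subunit, was 257 FPKM against 14.0 (4.12) and Fermt3 76.4 against 11 (2.70), while Srgn, the granule proteoglycan serglycin, was lower (-1.61), as was Myl9 (-1.52). Tubb1, the tubulin of the platelet marginal band, was 0, 0 and 0.0373 FPKM in the CD201+ cells, against 0.228, 0.650 and 0.190 in the CD201- cells. Below GPVI 4 of 9 genes were higher and 0 lower, led by the kinase Lyn (3.07) and the adaptor Lcp2 (2.85), although Gp6 itself was not expressed above 0.0425 FPKM.

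The lists were also read in D5-LSKCD201+ against the cells from the animal. Against FL-LSKCD201+, 10 of 58 tested genes of the lists were called higher and 29 lower, where 15.1% of all genes were higher and 19.6% lower. Against BM-LSKCD201+ 11 of 54 were higher and 29 lower, where 17.5% of all genes were higher and 27.2% lower. The higher calls were thus near the share over all genes in both. Among the lower calls, 5 and 3 genes averaged under 0.5 FPKM in D5-LSKCD201+ and passed the filter only through the cells from the animal, as 1 and 2 of the higher calls did through D5-LSKCD201+. Receptors were divided, 6 of 15 higher and 5 lower in both comparisons, whereas below GPVI 7 of 9 and 8 of 9 were lower and 0 higher. Itga2b was 45.2 FPKM in D5-LSKCD201+, 5.32-fold above fetal liver (2.28, SE 0.06, adjusted p = 2.3e-07) and 3.90-fold above bone marrow (1.88, SE 0.05, adjusted p = 3.4e-08). Endothelial markers moved with these receptors, 8 of 10 called higher than in fetal liver and 9 of 10 higher than in bone marrow. They summed to 2002 to 2033 FPKM against 493 to 560 and 414 to 451. Esam is counted both among the receptors and among these markers. The part of endothelial expression was not tested.

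**Figure D4:**
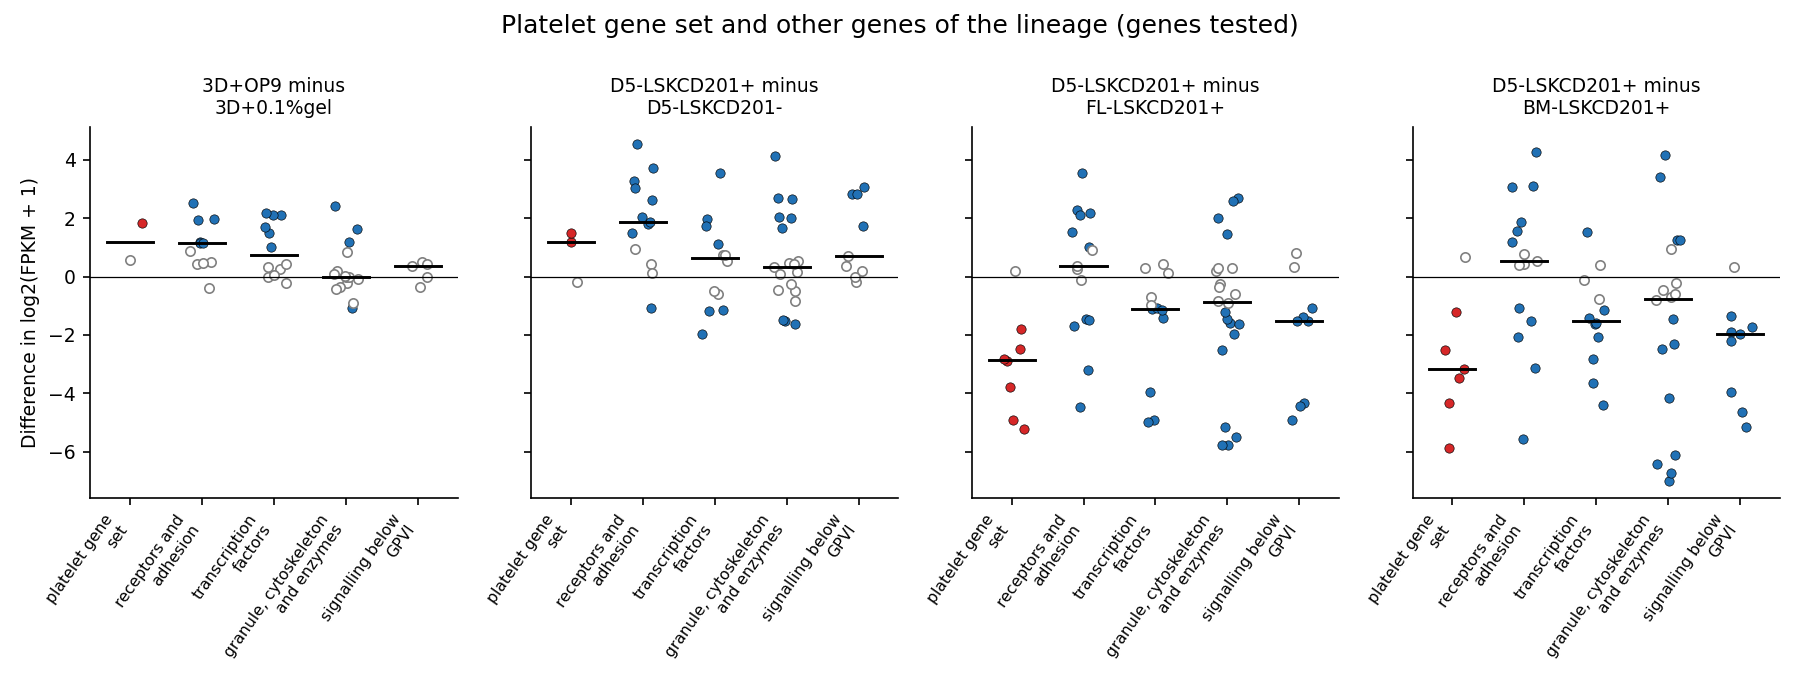
Difference in log2(FPKM + 1) for each tested gene of the set and of the 4 lists, in 4 comparisons. Filled points were called at an adjusted p under 0.05 and an absolute difference of at least 1, open points were not, and black lines are medians. In the comparisons with fetal liver and bone marrow most tested genes of the set lie below 0, most of those called having passed the filter only through those cells, while receptors spread to both sides of 0.

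The genes whose profile over the 15 sorted libraries was most like the mean of the 8 genes of the set that passed the filter there were Cd200r1 (Pearson r 0.995), Apbb1ip (0.992), Emid1, Gt(ROSA)26Sor and Hoxa5 (each 0.991), among 14434 genes compared. Apbb1ip, which encodes the integrin regulator RIAM, averaged 0.603 FPKM in D5-LSKCD201+, 15.5 in FL-LSKCD201+ and 8.26 in BM-LSKCD201+. The libraries fall into 5 groups that share their cell source, and the coefficients chiefly reflect levels that are high in fetal liver and bone marrow and low elsewhere.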

How the data were processed

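RNA was sequenced from 21 libraries, 3 per group. Per the labels and the study's methods, the authors prepared mRNA libraries, aligned the reads to mouse GRCm38 (the labels also list mm9) with HISAT2 2.0.5, assembled transcripts with StringTie 1.3.3 and compared groups with Cuffdiff 1.3.0. They deposited FPKM values, 1 table for 15 sorted-cell libraries and 1 for 6 coculture libraries, where 3578 of 22899 listed genes are blank. The tables were not set against each other. Summed FPKM per library was 483263 to 620332. Low values gathered only in part at common ratios between libraries. For mESC replicate 2, 187 of 1458 low genes shared the commonest ratio to mESC replicate 1. Depth was not worked out from such steps, so it is not known here and no counting interval is given. An exact 0 is called listed at 0. All 6 housekeeping genes looked at were above 0 in every library.

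FPKM was taken as log2(FPKM + 1). Genes averaging 0.5 FPKM or more over the libraries compared were tested between pairs of groups with limma 3.58.1 (trend, two-sided) in R 4.3.3, with Benjamini-Hochberg adjustment over all genes tested and a call at an adjusted p under 0.05 and an absolute difference of at least 1. The fit was tested on simulated data: of 200 genes changed 4-fold, 97.5% were recovered for 3D+OP9 against 3D+0.1%gel (12936 genes) and 96.0% for D5-LSKCD201+ against D5-LSKCD201- (13585 genes). The changed genes were drawn only from those above a set level, which most of the 9 genes did not reach in these comparisons. The recovery therefore says nothing of genes as low as these. The paper calls the 3 libraries of each sorted group biological replicates, and its legend for the coculture data speaks of 3 independent experiments. Labels do not say whether the 3 libraries of a group came from separate cultures or animals. The p-values measure only the spread between these libraries, and how much of it is technical is not known.

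The genes and lists were chosen with earlier results of these data known. All 9 genes were named in every comparison, and from each list the 2 with the largest called change in each direction for the comparisons within day 5, besides a fixed group of lineage genes, a member of which is not reported here. Libraries of fetal liver and bone marrow with the same replicate number deviated together over the genes tested (r = 0.242, 0.202 and 0.159). However, of the fetal liver libraries only replicate 1 correlated best with its own number in bone marrow. With the number as a block the same 2 genes, Gp1bb and Treml1, were called. Positions are from GENCODE for GRCm38, matched on Ensembl ID. Alternatives were another pseudocount, other filters, quantile normalization, a replicate block, a joint fit and leaving out each library.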

Additional observations from a re-analysis of the deposited data

How the results depend on the processing

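Of 124 counts of called genes under alternatives, 122 stayed within 1.5 times. With a filter at a mean of 1 FPKM, Pf4 was no longer tested between the day 5 groups and 1 gene (Gp1ba) remained called. The same filter left Pf4 untested for D5-LSKCD201+ against mESC, and Treml1 untested for both day 5 groups against bone marrow. With the adjusted p alone 6 genes in place of 2 were called between fetal liver and bone marrow (Gp9, Treml1, Gp5, Gp1bb, Nfe2 and Pf4). None of 595 alternative differences of single genes reversed and none of those still tested lost its call (Treml1 fell under the filter for D5-LSKCD201+ against bone marrow without BM-LSKCD201+ replicate 2), while 3 became calls: Gp1ba between D5-LSKCD201+ and bone marrow (1.02) and between D5-LSKCD201- and bone marrow (-2.12) with a pseudocount of 0.1, and Ppbp between fetal liver and bone marrow without FL-LSKCD201+ replicate 1 (-1.19).

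With the replicate number as a block the counts of called genes of the set were unchanged, at 1 for 3D+OP9 against gelatin, 2 for D5-LSKCD201+ against D5-LSKCD201-, 7 and 6 against fetal liver and bone marrow, and 2 between fetal liver and bone marrow. Over all genes the block moved the calls from 339 to 379 for the cocultures and from 3379 to 3381 for the day 5 groups, and in these comparisons not every library correlated best with its own number. With D5-LSKCD201- against bone marrow every D5-LSKCD201- library did, although the correlations were under 0.13.

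Leaving out single libraries moved the count of called genes from 2 to at most 3 between fetal liver and bone marrow, and from 6 to at least 5 for D5-LSKCD201+ against bone marrow. Quantile normalization moved the median over all genes from -0.23 to -0.03 for D5-LSKCD201+ against bone marrow, by less elsewhere, and kept every call of the set. It moved the share of higher calls from 75.7 to 61.4% for D5-LSKCD201- against mESC. Over all genes, calls for the cocultures were 339, 531 with a pseudocount of 0.1, 209 without 3D+0.1%gel replicate 2 and 891 with the adjusted p alone. With the adjusted p alone they were 9349 in place of 3379 between the day 5 groups and 7446 in place of 2581 between fetal liver and bone marrow. Averaging the closest pair of libraries, an alternative chosen after seeing the data, changed no count of the set where it applied. Genes with a mean under 0.5 FPKM, which include most of the set in cultured cells, were tested only without the filter, where the counts of called genes of the set were the same.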
